A study of Mus musculus with 9 samples.

Results

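Krüppel-like factors are transcription factors that bind GC-rich and CACCC sequences through zinc fingers at their C-terminal end. The 10 genes described here, Klf2, Klf3, Klf4, Klf5, Klf6, Klf7, Klf9, Klf10, Klf13 and Klf15, are a chosen part of this family, whose other genes are described apart below. All 10 are among the 18193 genes that had a probe set of their own on the array. Their transcripts were measured in m-ICcl2 cells, a line from fetal small intestinal epithelium of C57BL/6 mice that carries the SV40 large T antigen in every condition. The 9 arrays cover 3 conditions with 3 biological replicates each, as the labels have it: cells left unstimulated, cells given E. coli lipopolysaccharide (LPS, a bacterial endotoxin) at 100 ng/mL for 6 h, and cells given the same LPS for 6 h and then LPS-free medium for 90 h, called tolerant here after the series design. No culture time is given for the unstimulated cells, so for tolerant cells earlier LPS cannot be told apart from time in culture. The labels do not say whether replicates came from separate cultures, and p-values measure the spread between these arrays alone.

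Members of this family often act against each other at the same sites, some as activators and some as repressors. In the intestine Klf5 is known from dividing crypt cells and Klf4 from differentiated cells, including goblet cells. Several members respond early to outside signals: Klf6 and Klf10 to growth factors and TGF-beta, Klf9 and Klf15 to glucocorticoids, and Klf2, in endothelium, to blood flow through the ERK5 kinase and MEF2 factors.

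Levels are GCRMA probe-set values on the log2 scale, and the tests took in the 9431 genes that reached log2 4 on 3 or more of the 9 arrays. All 10 members passed that minimum, and each is shown by the probe set of its own with the highest mean level. A call means an adjusted p below 0.05 in limma, a linear model with a shared estimate of the spread, with Benjamini-Hochberg adjustment over all genes tested. The arrays of replicate 1 stood apart from those of replicates 2 and 3 in all conditions. For beta-actin, a control for RNA quality, the 3' control probe set exceeded the 5' one by log2 0.40 to 0.72 on the 3 arrays of replicate 1 and by 1.02 to 1.38 on the other 6. The 5' control probe set of 18S ribosomal RNA read log2 7.27 to 10.24 on replicate 1 and 3.38 to 5.76 on the other 6. Calls that change when the replicate number is taken as a block, or on replicates 2 and 3 alone, are therefore given both ways. Array medians over the tested genes lay between 7.62 and 7.84, and with 3 arrays a condition their number sets the precision.

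As a check of the labelled tissue, 7 of 11 small intestinal epithelial markers passed the level minimum, among them Vil1, Krt8, Krt18, Krt20 and Hnf4a, while Cdh1, Krt19, Cdx1 and Cdx2 lay below log2 4 on all 9 arrays. Epcam lay below it in unstimulated and 6 h cells and had a mean of 5.64 in tolerant cells. From unstimulated to tolerant cells 4 of the 7 tested rose (Epcam, Cdh17, Krt18 and Krt20), against 14.0% of all genes tested. Hnf4a fell, against 12.2% of all genes. Epcam is among the 7 tested only through its tolerant arrays. These changes stood beside the rise of most members described here. The summed level of the 11 markers was log2 14.27 to 14.52 unstimulated, 14.16 to 14.57 at 6 h and 14.64 to 14.88 in tolerant cells. Linear values were summed, so Krt8, Krt18 and Krt20 make up most of the level of these markers. Their part in the changes of the members was not tested. All 6 endothelial markers, 6 of 7 goblet cell markers and 6 of 7 fibroblast markers lay below log2 4 on every array; the remaining fibroblast marker, Vim, had means of 13.44, 13.43 and 13.35 in the order of conditions above.

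The promoters of 4 members with opposite changes are shown: Klf2 and Klf15, whose means were lower after LPS, and Klf4 and Klf9, which rose in tolerant cells. Klf15 and Klf4 hold the same kinds of motif, the GC box and the E-box. Each window runs from 250 bases before to 50 after the transcription start (RefSeq, GRCm38.p6), at chr8:72318812-72319111, plus strand, for Klf2, chr6:90462326-90462625, plus strand, for Klf15, chr4:55532426-55532725, minus strand, for Klf4 and chr19:23140976-23141275, plus strand, for Klf9. Capitals mark matches, on either strand, to the GC box (GGGCGG), the CACCC box (CCACCC), the E-box (CACGTG), AP-1 (TGANTCA) and MEF2.
Klf2: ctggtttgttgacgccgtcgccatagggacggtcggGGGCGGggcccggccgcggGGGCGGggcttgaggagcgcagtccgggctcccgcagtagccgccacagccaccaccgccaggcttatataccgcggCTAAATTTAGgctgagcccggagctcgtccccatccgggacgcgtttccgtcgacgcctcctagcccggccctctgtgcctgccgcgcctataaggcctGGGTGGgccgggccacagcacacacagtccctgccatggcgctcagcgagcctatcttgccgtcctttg
Klf15: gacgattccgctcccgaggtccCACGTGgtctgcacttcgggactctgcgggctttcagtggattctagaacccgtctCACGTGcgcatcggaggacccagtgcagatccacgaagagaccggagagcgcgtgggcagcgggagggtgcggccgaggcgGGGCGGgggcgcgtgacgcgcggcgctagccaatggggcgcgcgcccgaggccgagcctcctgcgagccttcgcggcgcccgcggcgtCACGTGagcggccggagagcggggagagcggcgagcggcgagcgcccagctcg
Klf4: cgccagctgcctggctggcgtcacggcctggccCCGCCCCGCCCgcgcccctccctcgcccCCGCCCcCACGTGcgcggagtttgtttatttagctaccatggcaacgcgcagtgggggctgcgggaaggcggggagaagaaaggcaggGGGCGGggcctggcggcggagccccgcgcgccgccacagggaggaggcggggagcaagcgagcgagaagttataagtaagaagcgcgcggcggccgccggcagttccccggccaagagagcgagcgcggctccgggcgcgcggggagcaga
Klf9: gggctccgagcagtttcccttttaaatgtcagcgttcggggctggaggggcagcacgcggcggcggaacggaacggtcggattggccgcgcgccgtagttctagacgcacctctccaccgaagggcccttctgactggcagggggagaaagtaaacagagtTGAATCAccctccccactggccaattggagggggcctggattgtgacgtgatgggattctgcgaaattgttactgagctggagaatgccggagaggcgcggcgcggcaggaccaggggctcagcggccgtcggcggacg
The Klf2 window holds a MEF2 match that begins at position -118 from the transcription start, and was the single one of 8 member windows with such a match, against 3.19% of all 32851 windows of this length. Klf15 holds 3 E-boxes, and E-boxes were present in 3 of the 8 windows (Klf4, Klf6 and Klf15) against 7.15% of all windows. The GC box was present in all of the 8 but that of Klf9, against 35.7% of all windows, and the CACCC box in 4 (Klf2, Klf3, Klf7 and Klf13) against 31.5%. Klf9 alone of the 8 held an AP-1 match, against 7.81% of all windows. No member window held a cAMP response element (TGACGTCA), NF-kappa-B or CArG match, which 1.79%, 8.46% and 1.63% of all windows held. The member windows had a GC content of 58.3% to 76.7%, above the median of 52.7% for all windows. In Klf4 a pair of neighbouring GC boxes overlap, and each match was counted. These matches describe the sequence and show no binding.

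In tolerant cells most of the 10 members were raised and Klf2 was lowered. Against unstimulated cells, Klf5, Klf6, Klf7, Klf9, Klf4 and Klf10 rose by 1.92-fold to 4.45-fold and Klf2 fell at least 2.41-fold, while Klf3, Klf13 and Klf15 did not pass. These 7 calls among 10 members compare with 26.2% of all genes tested that were called, 14.0% higher and 12.2% lower. The arrays of both conditions did not overlap for 9 of 10 members, against 47.1% of all genes tested; 7 members lay higher and 2 lower, against 22.6% and 24.5%. The median log2 change was 1.07 over the members and -0.07 over all genes tested. With the replicate block the calls were 7 higher and 2 lower (48.6% of all genes called), against 22.7% and 25.9% of all genes, with Klf3 and Klf15 added. On replicates 2 and 3 alone they were 7 and 1 (38.3% of all genes called, 18.5% higher and 19.7% lower), with Klf3 added.

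At 6 h of LPS none of the 10 members was called by limma, with 0.0636% of all genes called, although 4 members had an unadjusted p below 0.05, against 2163 of all 9431 genes. With the replicate block 5 members were called, against 24.0% of all genes: Klf6, Klf7 and Klf9 higher (11.6% of all genes) and Klf2 and Klf15 lower (12.5%). On replicates 2 and 3 alone, 0 members were called, against 0.0848% of all genes. The arrays did not overlap for Klf9, which was higher, and for Klf2 and Klf15, which were lower, 3 of 10 members against 26.1% of all genes tested. The median log2 change was 0.12 over the members and -0.11 over all genes tested.

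From 6 h to the tolerant state Klf4, Klf10 and Klf6 rose and Klf2 fell, 4 of 10 members against 13.1% of all genes called, 7.10% higher and 6.02% lower. With the replicate block, and also on replicates 2 and 3 alone, Klf5 and Klf7 were called higher as well, which gave 5 higher and 1 lower, against 31.7% and 22.5% of all genes called. The tolerant arrays lay apart from the 6 h arrays for 6 of 10 members, against 31.3% of all genes tested. The comparisons share arrays, so their values are set side by side and are not independent of each other.

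**Figure D1:**
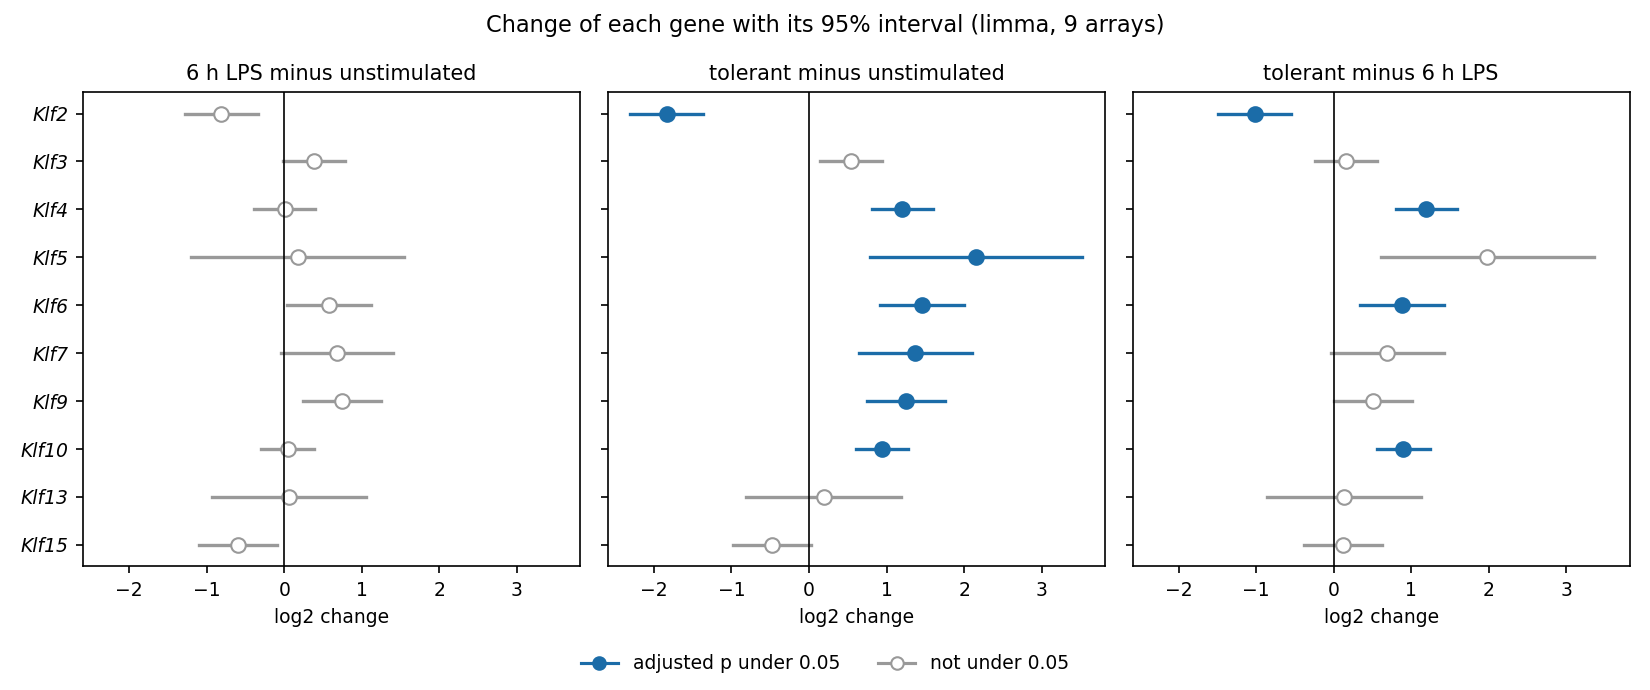
Log2 change of each of the 10 genes (x axis) in the 3 comparisons, as a point with its 95% interval from limma on 9 arrays. Filled points passed an adjusted p of 0.05: none at 6 h, 7 in tolerant against unstimulated cells and 4 in tolerant against 6 h cells, with Klf2 the only called gene left of 0. The fit shown has no replicate block, and with that block 5 genes passed at 6 h.

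Klf4 and Klf5, the members best known from the intestine, both rose in the tolerant state. Klf4 read 7.94, 7.96 and 8.14 on the unstimulated arrays, 7.70, 8.13 and 8.23 at 6 h and 9.17, 9.23 and 9.24 in tolerant cells (log2 levels, replicates 1 to 3 throughout). All 3 tolerant arrays lay above all other 6, and the unstimulated and 6 h arrays overlapped. Klf4 was 2.3-fold higher in tolerant than in unstimulated cells (log2 change 1.20 ± 0.17, SE; adjusted p = 0.00181) and 2.29-fold higher than at 6 h (adjusted p = 0.00271). At 6 h its change was 0.01, with a 95% interval of -0.39 to 0.40 (adjusted p = 0.989). Of the goblet cell genes with which Klf4 is linked, Muc2, Tff3, Spdef, Atoh1, Clca1 and Agr2 were below log2 4 on all 9 arrays, and the remaining marker, Fcgbp, passed only from 6 h to tolerant cells with the replicate block (log2 change 0.47, adjusted p = 0.0223).

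Klf5 read 8.94, 7.64 and 7.45 unstimulated, 9.35, 7.37 and 7.83 at 6 h and 11.07, 9.71 and 9.71 in tolerant cells. Replicate 1 was higher than replicates 2 and 3 in every condition, by 1.5 on average, and still all 3 tolerant arrays lay above the other 6. The rise from unstimulated to tolerant cells was 2.13, 2.07 and 2.26 in the same-numbered pairs of arrays, or 4.45-fold over the means (log2 change 2.15 ± 0.60, SE; adjusted p = 0.0294, or 6.8e-05 with the replicate block and 0.00124 on replicates 2 and 3). With the mean over its probe sets in place of the highest one, the log2 change was 1.43 (limma adjusted p = 0.000383). Against 6 h it was then 1.19 (adjusted p = 0.00126). That mean takes in 1430255_at, which lay below log2 4 on every array. Its call did not hold when unstimulated replicate 2 or 3 or any 1 of the tolerant arrays was left out (adjusted p = 0.053 to 0.099). Against 6 h the rise was 1.98 ± 0.60 (SE; adjusted p = 0.0645, or 0.000118 with the block). At 6 h its change had a 95% interval of -1.20 to 1.54, too wide to tell a rise from a fall.

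**Figure D2:**
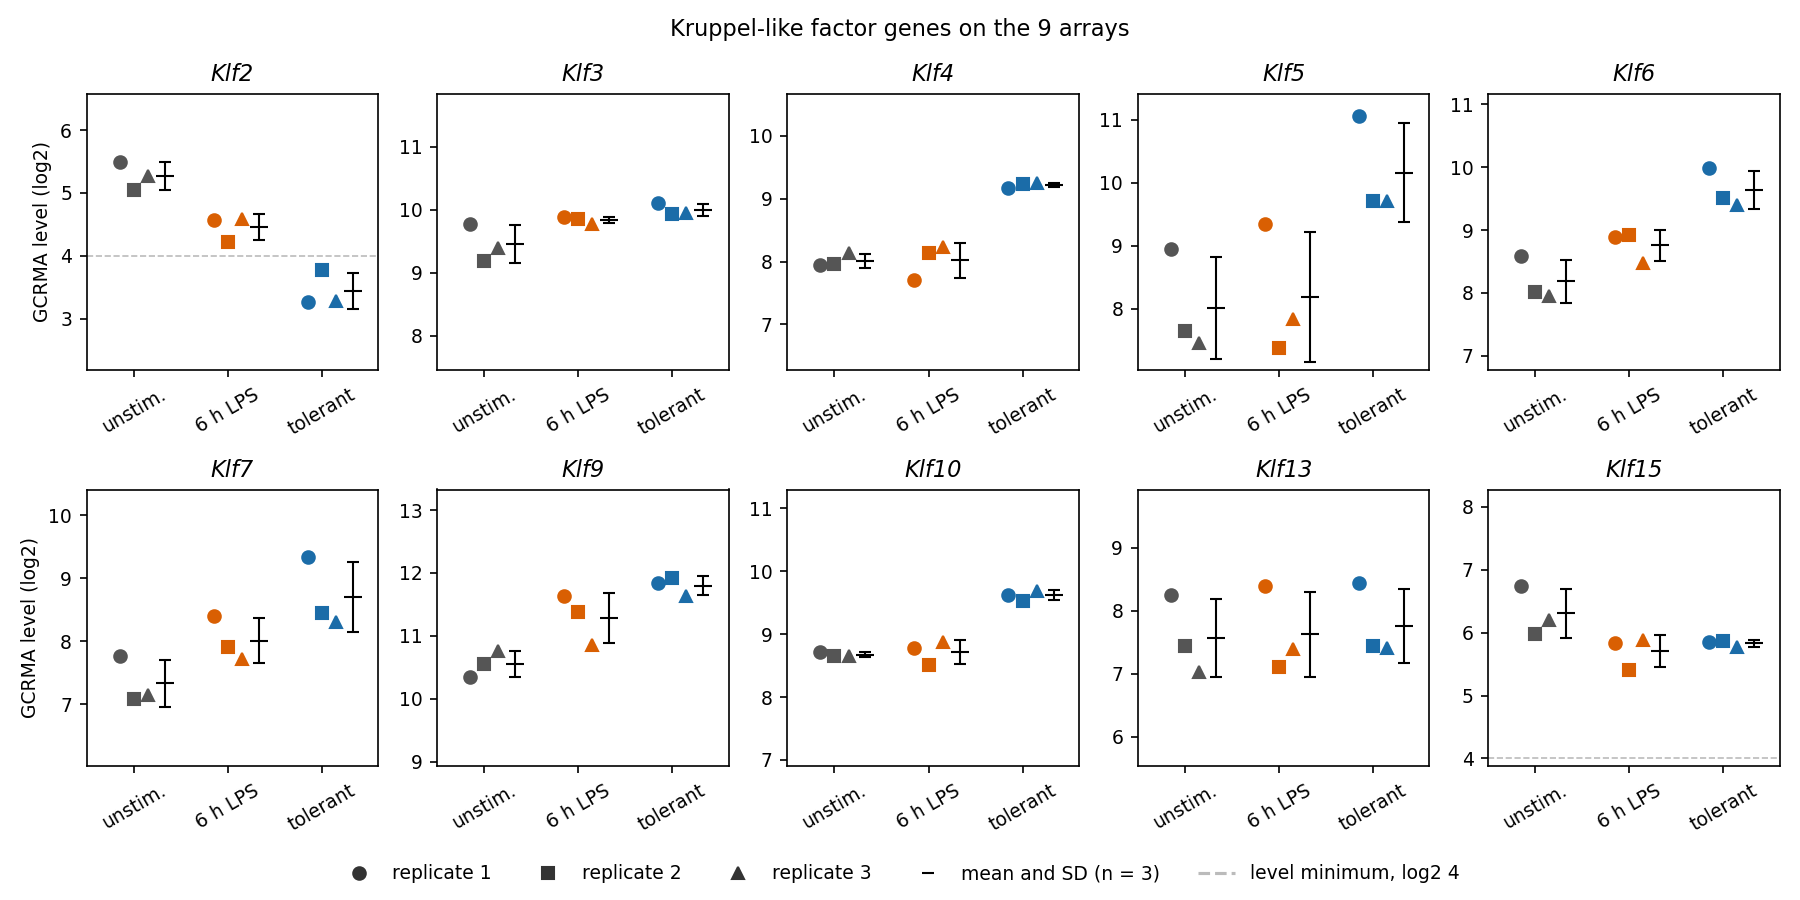
Log2 GCRMA level of each gene on the 9 arrays by condition, with replicates 1, 2 and 3 as circles, squares and triangles and the mean with its SD (n = 3) beside them. Every panel spans the same range of log2 units around its own centre; Klf4 and Klf10 step up only in tolerant cells, Klf2 steps down at 6 h and again in tolerant cells to below the level minimum of log2 4, and replicate 1 of Klf5 and Klf13 lies above the others in every condition.

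Klf6 and Klf10 are members that answer early to growth factors and TGF-beta, Klf10 having first been described as a TGF-beta inducible gene. Klf10 read 8.72, 8.66 and 8.65 unstimulated, 8.78, 8.51 and 8.87 at 6 h and 9.63, 9.53 and 9.69 in tolerant cells. As for Klf4, the tolerant arrays lay above the other 6 and the earlier conditions overlapped. It was 1.92-fold higher in tolerant than in unstimulated cells (log2 change 0.94 ± 0.15, SE; adjusted p = 0.00282) and 1.86-fold higher than at 6 h (adjusted p = 0.00539), and at 6 h its change was 0.04, with a 95% interval of -0.30 to 0.39.

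Klf6 instead lay between the other conditions at 6 h, with 8.58, 8.01 and 7.96 unstimulated, 8.88, 8.91 and 8.48 at 6 h and 9.98, 9.51 and 9.41 in tolerant cells. Each same-numbered pair was higher at 6 h than unstimulated, although the arrays of these conditions overlapped, and the tolerant arrays lay above both. The change at 6 h was 0.57, a 1.49-fold difference that passed with the replicate block (adjusted p = 0.196, or 0.0358 with the block). In tolerant cells Klf6 was 2.73-fold higher than unstimulated (log2 change 1.45 ± 0.24, SE; adjusted p = 0.00318) and 1.84-fold higher than at 6 h (adjusted p = 0.043). The last call was lost with any single array left out (adjusted p = 0.0563 to 0.132) except unstimulated replicate 1 (0.0282).

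Klf7, a close relative of Klf6 that is widely expressed and known for its part in neurons, had a similar course. It read 7.76, 7.08 and 7.15 unstimulated, 8.40, 7.92 and 7.71 at 6 h and 9.34, 8.46 and 8.31 in tolerant cells, rising at each step within every replicate number. Replicate 1 was again the highest of each condition, by 0.73 on average. Klf7 was 1.6-fold higher at 6 h (adjusted p = 0.245, or 0.0319 with the block), 2.59-fold higher in tolerant than in unstimulated cells (log2 change 1.37 ± 0.32, SE; adjusted p = 0.014) and 1.62-fold higher in tolerant cells than at 6 h (adjusted p = 0.209, or 0.00641 with the block). The rise over unstimulated cells missed the threshold without unstimulated replicate 2 (adjusted p = 0.0581). Klf6 and Klf7 were the 2 members with the most similar profiles over the 9 arrays, with a root-mean-square difference of 0.19 between their centred log2 values, followed by Klf4 and Klf10 with 0.23.

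Klf9 and Klf15 are both known targets of the glucocorticoid receptor, and their means moved in opposite directions. Klf9 read 10.34, 10.55 and 10.76 unstimulated, 11.63, 11.38 and 10.86 at 6 h and 11.85, 11.91 and 11.63 in tolerant cells. On this probe set all 6 h arrays lay above all unstimulated ones, replicate 3 by the smallest step (0.10 within its number against 1.29 and 0.83). Its 6 h change was the largest of the 5 probe sets at the level minimum (0.30 to 0.74). These arrays overlapped on 1428289_at, 1428288_at and 1436763_a_at, and the mean over probe sets gave 0.48 (limma adjusted p = 0.166). The change at 6 h was 0.74, or 1.67-fold (adjusted p = 0.125, 0.0404 with the block and 0.0346 without 6 h LPS replicate 3). Tolerant cells were 2.37-fold higher than unstimulated (log2 change 1.25 ± 0.22, SE; adjusted p = 0.0045), and their difference from 6 h was 0.51 (adjusted p = 0.183).

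Klf15, a regulator of glucose and amino acid metabolism, read 6.74, 5.98 and 6.20 unstimulated, 5.83, 5.41 and 5.88 at 6 h and 5.85, 5.86 and 5.77 in tolerant cells. All unstimulated arrays lay above all others, and the later conditions overlapped. The differences from unstimulated cells were -0.60 at 6 h (adjusted p = 0.163) and -0.48 in tolerant cells (adjusted p = 0.146). They passed only with a block for the replicates (adjusted p = 0.0433 and 0.0494 with the replicate block). On replicates 2 and 3 alone they were -0.44 and -0.27 (adjusted p = 0.176 and 0.285).

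Klf2, which holds lymphocytes and endothelial cells in a quiescent state, fell in the tolerant state. It read 5.50, 5.04 and 5.27 unstimulated, 4.58, 4.21 and 4.58 at 6 h and 3.27, 3.77 and 3.28 in tolerant cells. The 3 conditions did not overlap, and each step was downward in all same-numbered pairs. The tolerant arrays all lay below log2 4, the minimum set here, and differences below it were not read. Its level was therefore at least 2.41-fold lower in tolerant than in unstimulated cells (measured log2 change -1.83 ± 0.21, SE; adjusted p = 0.000602) and at least 1.37-fold lower than at 6 h (adjusted p = 0.0134, but 0.0508 without tolerant replicate 1, 0.059 without tolerant replicate 3 and 0.128 with values below log2 4 set to that floor). With the floor at log2 4, the change from unstimulated to tolerant cells was -1.27 (limma adjusted p = 0.00144). The change at 6 h was -0.81, or 1.76-fold lower (adjusted p = 0.115, or 0.0343 with the block).

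Klf2 is also expressed in leukocytes. Of their markers, the 2 that passed the level minimum were called lower in tolerant than in unstimulated cells, against 12.2% of all genes tested. Csf1r, the receptor of a macrophage growth factor, fell 3.85-fold (adjusted p = 0.0232) and Spi1, a myeloid transcription factor, at least 1.94-fold (adjusted p = 0.0181) from unstimulated to tolerant cells. They were the 2 of 6 leukocyte markers on the array that passed the level minimum. Ptprc, the general leukocyte marker, had a highest value of 3.75, and Cd3e, Adgre1 and Itgam also lay below log2 4 on every array. The summed level of the 6 markers was log2 10.20 to 11.23 unstimulated, 9.48 to 11.01 at 6 h and 8.13 to 9.36 in tolerant cells. Linear values were summed, so this is nearly the level of Csf1r alone, with means of 10.79, 10.32 and 8.84 in that order, and says little of the other markers. The part of Csf1r and Spi1 in the Klf2 result was not tested, and in such bulk RNA fewer cells of a type and less RNA per cell cannot be told apart. All endothelial markers were near the low end throughout, the highest being Kdr with 3.69.

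Klf3, a repressor that recruits CtBP, read 9.78, 9.19 and 9.40 unstimulated, 9.89, 9.85 and 9.78 at 6 h and 10.11, 9.93 and 9.95 in tolerant cells. It was higher at each later time in all same-numbered pairs, and the tolerant arrays lay above the rest. Its 1.46-fold difference between tolerant and unstimulated cells lay just past the threshold (log2 change 0.54 ± 0.18, SE; adjusted p = 0.0514) and passed with the block (0.0128) and on replicates 2 and 3 (0.0121). Klf13, known from T cells as a regulator of the chemokine gene Ccl5, was not called in any comparison. It read 8.25, 7.43 and 7.02 unstimulated, 8.39, 7.11 and 7.39 at 6 h and 8.44, 7.43 and 7.41 in tolerant cells, with replicate 1 the highest in every condition. The 95% interval for tolerant against unstimulated cells was -0.81 to 1.18, and includes changes of either sign.

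The members had 34 probe sets in all, of which 27 passed the level minimum when each was tested as its own feature. In tolerant against unstimulated cells 24 of the 27 were higher, 20 of them called, and 1 was called lower, that of Klf2, against 23.2% of all probe sets tested that were called, 13.4% higher and 9.79% lower. Klf7 was called higher on 4 of 4 probe sets (log2 changes of 1.13 to 1.66), Klf9 on 5 of 5 (1.06 to 1.68), Klf6 on 4 of 5 (0.91 to 1.81) and Klf4 on both of its own (0.98 and 1.20). Klf2, Klf10 and Klf15 each had a single probe set. Klf3 was higher on 4 of 4 and was called on 2 that were not used for the gene, 1429360_at (0.68, adjusted p = 0.0143) and 1421604_a_at (1.49, adjusted p = 0.0256). The probe sets of Klf13 differed in sign, with 0.19 on the one used and -0.31 on 1436316_at, whose tolerant arrays lay below all its unstimulated ones without a call (adjusted p = 0.28). At 6 h none of the 27 was called, against 0.0540% of all probe sets tested, and 24 had a higher mean. Between 6 h and tolerant cells 6 were called higher and 1 lower, against 10.8% of all probe sets, 5.65% higher and 5.14% lower.

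The distance between replicate 1 and the others differed between probe sets of the same gene. For Klf5 replicate 1 minus the mean of replicates 2 and 3 was 1.5 on the probe set used and -0.79 on the other, 1451739_at, while the changes from unstimulated to tolerant cells were 2.15 and 2.13. For Klf6 this distance ran from -0.68 on 1427742_a_at to 1.57 on 1418280_at, the latter being the probe set of Klf6 without a call in tolerant cells (1.70, adjusted p = 0.13). Of all genes tested, 6.86% had replicate 1 higher by 1 log2 or more, and among the members Klf5 and Klf13 did. The part of RNA quality in this distance was not tested.

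**Figure D3:**
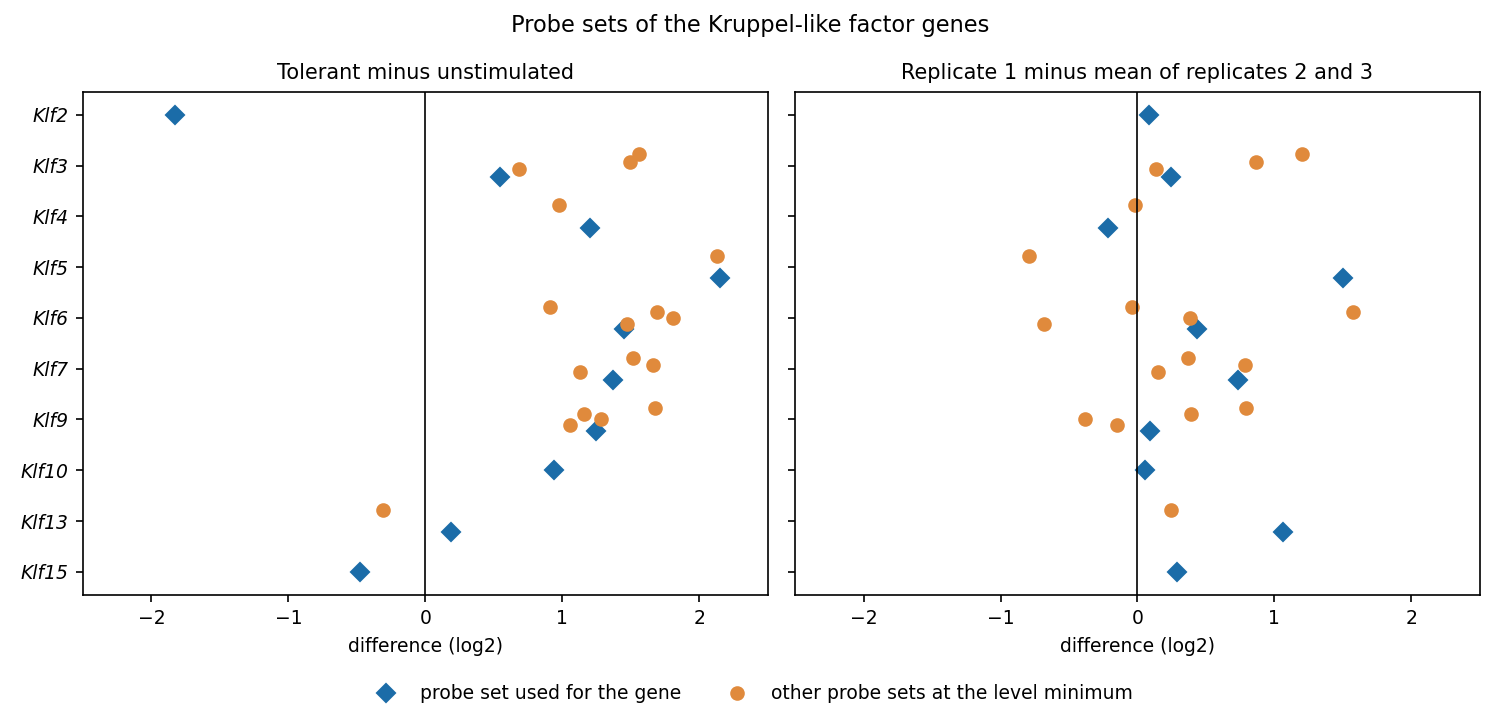
Log2 differences of the 27 probe sets at the level minimum, by gene, between tolerant and unstimulated cells (left) and between replicate 1 and the mean of replicates 2 and 3, averaged over conditions (right). Diamonds are the probe sets used for the gene; the 5 points of Klf6 and both of Klf5 agree in sign on the left and spread to both sides of 0 on the right.

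Of the other family genes, 16 KLF and SP genes were listed, and 6 of the 13 with a probe set passed the level minimum. In tolerant against unstimulated cells 1 of the 6 rose (14.0% of all genes) and none fell (12.2%). This was Klf11, the closest relative of Klf10, which rose 2.53-fold from a mean of 4.66 to 6.00 (adjusted p = 0.00262) and was 2.25-fold higher than at 6 h (adjusted p = 0.00741). With the block 3 of 6 were called higher (22.7% of all genes), Sp1 (log2 means of 10.26 and 10.96, adjusted p = 0.00239 with the block) and Sp4 (0.0117) besides Klf11. Klf1, Klf12, Klf14 and Klf17 were below log2 4 on all 9 arrays.

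Genes that act on or beside the family were described by their counts. In none of these lists was a gene called at 6 h without the replicate block, with 0.0636% of all genes called. With the block, the 6 h calls were 1 higher and 3 lower among the cofactors and 1 higher in the ERK5 and MEF2 pathway (Mef2a). They were 1 higher in the TGF-beta list (Skil) and 1 lower among growth genes (Myc). In the glucocorticoid receptor list they were 2 higher, Cebpd and the receptor gene Nr3c1, and 2 lower. Of all genes tested, 11.6% were called higher and 12.5% lower at 6 h with the block. Of 15 cofactor genes, all tested, 1 rose and 2 fell in tolerant against unstimulated cells, and 3 rose and 4 fell with the block. Of all genes tested 26.2% were called, or 48.6% with the block, and the cofactors did not exceed either share. The cofactor genes called without the block were Wwp1 (2.52-fold higher, adjusted p = 0.0418), Hdac1 (1.78-fold lower, adjusted p = 0.0236) and Sin3b (1.6-fold lower, adjusted p = 0.0289). The ubiquitin ligase encoded by Wwp1 is known in human cells to act on KLF5. Hdac1 and Sin3b encode parts of the SIN3 co-repressor complex. Of 6 tested genes of the ERK5 and MEF2 pathway, known to raise Klf2 in endothelium, 2 rose (14.0% of all genes). These were the kinase gene Map3k2, by 4.07-fold (adjusted p = 0.00221), and Mef2a, by 2.42-fold (adjusted p = 0.00808). Map2k5, which encodes the kinase that activates ERK5, was called lower only with the block (1.4-fold, adjusted p = 0.275, or 0.0449 with the block). Mapk7, which encodes ERK5, had means of 5.96, 5.34 and 5.72 in unstimulated, 6 h and tolerant cells and was not called.

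Genes listed as early targets of TGF-beta, to which Klf10 belongs, rose more often than they fell. Id1, Id2 and Id3 are on this list, and how TGF-beta moves each listed gene in these cells was not tested. In tolerant against unstimulated cells 6 of 8 tested rose (14.0% of all genes) and none fell (12.2%), with a median log2 change of 1.44 against -0.07 over all genes. The DNA-binding repressor gene Bhlhe40 rose 3.54-fold (adjusted p = 0.000592), Tgif1 2.88-fold (adjusted p = 0.00778) and Id3 at least 1.94-fold, the last having passed the level minimum only through its tolerant arrays. Smad7 (6.65 and 7.03, adjusted p = 0.522) and Smad6 (5.35 and 5.14, adjusted p = 0.571) were the genes without a call. From 6 h to tolerant cells 5 of these 8 rose (7.10% of all genes).

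The list of glucocorticoid receptor targets, to which Klf9 and Klf15 belong, also held the receptor gene Nr3c1 itself. Of its 9 tested genes, 1 rose in tolerant against unstimulated cells (14.0% of all genes). With the block 2 were called higher (22.7%), Dusp1 and the receptor gene, so no further target was added. The call without the block was the phosphatase gene Dusp1 (2.01-fold, adjusted p = 0.00178). Per1, Tsc22d3 and Fkbp5, commonly used as readouts of this receptor, were not called in any comparison. The receptor gene Nr3c1 had means of 7.22, 8.18 and 8.0 in unstimulated, 6 h and tolerant cells (adjusted p = 0.119 and 0.0609 against unstimulated, 0.0401 and 0.0416 with the block). Cebpd, which encodes a C/EBP transcription factor, had means of 5.32, 7.36 and 5.16 in the same order. It was 4.12-fold higher at 6 h than unstimulated (adjusted p = 0.07, or 0.00244 with the block) and fell 4.6-fold from 6 h to tolerant cells (adjusted p = 0.00267). From 6 h to tolerant cells Dusp1 and Sgk1 rose, and Errfi1 was called higher only with the block (1.74-fold, adjusted p = 0.0502, or 0.0126 with the block).

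Among growth genes tied to Klf4, Klf5 and Klf6, 4 of 9 tested rose (14.0% of all genes) and 1 fell (12.2%) in tolerant against unstimulated cells. The cyclin gene Ccnd1 rose 1.9-fold (adjusted p = 0.00286) and Myc 1.78-fold (adjusted p = 0.0132), and the cyclin gene Ccne1 fell 2.23-fold (adjusted p = 0.00681). Cdkn1a, the p21 gene that KLF4 and KLF6 are known to raise in human cells, had means of 10.88, 10.79 and 10.47 and was called, lower, only with the block (adjusted p = 0.464, or 0.0381 with the block, in tolerant against unstimulated cells). Of 5 tested metabolic genes tied to Klf15, 1 fell (12.2% of all genes), the proline dehydrogenase gene Prodh (2.09-fold, adjusted p = 0.0496). With the block 2 fell in tolerant cells (25.9% of all genes) and 4 at 6 h (12.5%). Of 2 tested endothelial genes tied to Klf2, Edn1, which encodes endothelin, rose 2.46-fold (adjusted p = 0.0147), and Nos3 was not called.

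**Figure D4:**
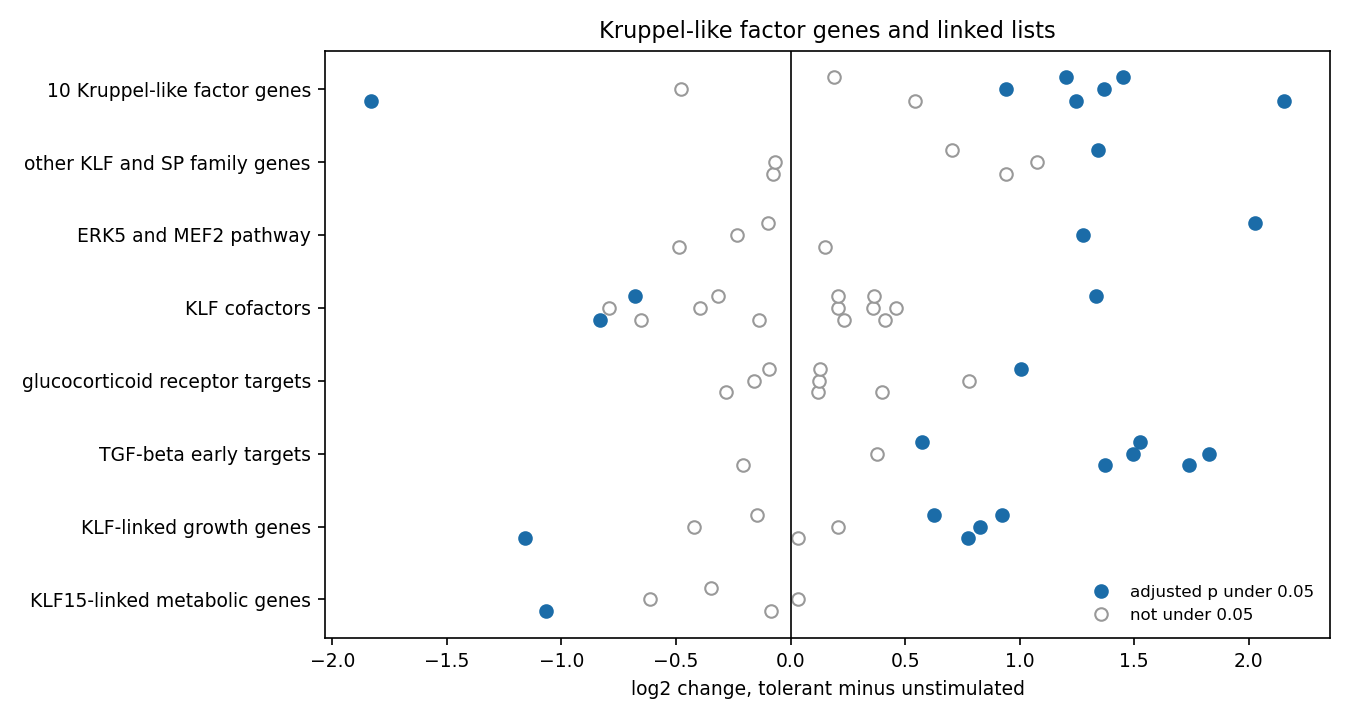
Log2 change from unstimulated to tolerant cells (x axis) for the 10 Kruppel-like factor genes and for the tested genes of 7 lists, 1 point a gene. Filled points passed an adjusted p of 0.05. Of 8 genes listed as TGF-beta early targets 6 lie filled to the right of 0, and Klf2 is the leftmost filled point of its row at -1.83.

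Among 1905 other tested genes with condition means at least 1 log2 apart, those with the most similar profile over the 9 arrays were named for each called member by the smallest root-mean-square difference of centred log2 values. They were Wee1, Pvt1 and Grk5 for Klf4 (0.11 to 0.12), Hgfac, Hdac5 and Gprc5a for Klf5 (0.18 to 0.21) and Pi4k2b, Esyt2 and Slc16a1 for Klf6 (0.13 to 0.15). For Klf7 they were B4galt6, Mapk6 and Pi4k2b (0.11 to 0.20), for Klf9 Usp47, Tmem30a and Arih1 (0.10 to 0.15), for Klf10 Parm1, Pgm2 and Gpsm2 (0.14 each) and for Klf2 Ccdc189, Ccdc134 and Mettl17 (0.18 to 0.22). This likeness is a description over arrays that share their conditions and replicate numbers.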

How the data were processed

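The 9 Affymetrix mouse arrays were measured on total RNA that, per the labels, was isolated with TRIzol and labelled with biotin. The authors deposited linear intensity values, 1 for each probe set on each array. GCRMA is the method named, per the submitters' processing notes; its version and settings are not given in the sources used here. Background subtraction in GCRMA makes low values crowd at a floor, so folds against a condition below log2 4 on all arrays are bounds. In R 4.3.3 log2 was taken with no pseudocount, and values were tested with limma 3.58.1 (lmFit with a mean per condition over 9 arrays, 6 residual degrees of freedom, eBayes, two-sided moderated tests, Benjamini-Hochberg over 9431 genes in each of 3 comparisons). Of 45101 probe sets, the platform annotation gives 1 gene symbol for 34945, several for 932 and none for 9160, and 64 are controls. The motif windows come from a RefSeq table that held 8 of the 10 members.

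Groups came from the titles. Deviations from condition means correlated at 0.16 to 0.84 across genes for every same-numbered pair of arrays, which met the rule for pairing (over 0.1). They correlated at 0.21 to 0.73 between replicates 2 and 3 of different conditions, and at -0.74 to -0.38 between replicate 1 and the others. These values set replicate 1 apart. They cannot tell whether replicates 2 and 3 pair by number, since their ranges overlap. The main fit left the replicate number out, although the rule was met, because the labels state no shared source for it. That choice decided the 6 h count of called members, 0 without the block and 5 with it. The members, 13 lists with 124 genes, tests and alternatives were chosen with earlier results of these data known. Of the list genes 7 lacked an own probe set and 46 did not reach the level minimum. All members were named, with up to 3 called genes a list by size of change. Genes whose value was given without a call were chosen after values were seen. The steps were tested on simulated data. Alternatives covered the filter, the rule for probe sets, a floor, normalization, eBayes with trend or robust, fits of 2 conditions, replicate blocks, a fold threshold and each array left out.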

Additional observations from a re-analysis of the deposited data

How the results depend on the processing

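Of the 7 members called in tolerant against unstimulated cells, Klf2 was called under all 25 alternatives. The count stayed within 1.5 times of 7 under 24 of 25 alternatives and was 1 with a fold threshold of 1.5 within the test; leaving out 1 array gave 5 to 8. Without a filter Klf5 (adjusted p = 0.11) and Klf7 (0.0504) lost their calls, and on its probe set of largest variance Klf6 did (0.132). For tolerant against 6 h cells Klf6 lost its call without a filter (0.0968), with only the 2 conditions compared (0.0605) and on its probe set of largest variance (0.621). At 6 h the count was 5 with the replicate block, 5 with a random replicate block, 5 with a block of replicate 1 against the others, and 0 to 1 with 1 array left out, the 1 being Klf9 without 6 h LPS replicate 3. For tolerant against 6 h cells, 4 became 0 with the fold threshold of 1.5 and 2 without tolerant replicate 1 or 3, the range with 1 array left out being 2 to 5. The replicate block changed no other call of a member than those given above.

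Signs turned only for differences that were not called. With the mean over probe sets Klf13 read -0.041 in tolerant against unstimulated and -0.067 in tolerant against 6 h cells. Klf3 read -0.033 at 6 h on its probe set of largest variance, and Klf4 -0.041 at 6 h after quantile normalization. With 1 array left out, the 6 h change ran from -0.098 to 0.17 for Klf4, -0.41 to 0.64 for Klf5, -0.031 to 0.15 for Klf10 and -0.32 to 0.40 for Klf13. Likewise Klf13 ran from -0.15 to 0.53 in tolerant against unstimulated and -0.21 to 0.51 in tolerant against 6 h cells, and Klf15 from -0.029 to 0.21 in the latter. The cause was not tested. The fit of every probe set was chosen after seeing the data; there Klf6 lost its call against 6 h (adjusted p = 0.0529). The probe set of largest variance of Klf9 did not reach the level minimum and gave no value. The GCRMA floor limits what can be said of Klf2 in tolerant cells.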
